A study of Mus musculus with 146 samples.

Results

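Germ cells of the newborn mouse ovary that carried the oocyte transcription factor gene Figla but almost no Zp3 differed widely in the level of Id1. They were the cells with at least 1 TPM (a transcript level per unit of length, with an equal total for every cell) of Ddx4, the germ cell RNA helicase gene, at least 300 TPM of Figla and under 10 TPM of Zp3, a zona pellucida gene. These limits kept 76 cells, 54.7% of the distinct cells of the series. The cells were ranked by Id1 TPM, and the 25 highest (Id1-high cells) were compared with the 25 lowest (Id1-low cells). The 26 cells between them are given as middle cells. The Id1 level chose the groups, so the Id1 values are a description, as are the values of all other genes in the same cells.

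Single germ cells had been picked by pipette from digested ovaries of C57/BL6J females at D0.5, the day of birth, and sequenced by Smart-seq2, which reads polyadenylated RNA along its length. The 5 ovaries came from pups of 1 litter, no treatment is named, and the labels tie no cell to an ovary or pup. All cells are therefore 1 sample, no test was made, and a range or SD below is a spread over cells. After amplification the study screened the libraries by quantitative PCR for Ddx4 and for the pregranulosa gene Foxl2, and removed those positive for Foxl2.

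Of 146 libraries, 7 pairs had profiles with a Pearson correlation of 0.991 to 0.997 over coding genes, against 0.880 for the next most alike pair. The counts within these pairs differed by a chi-square per degree of freedom of 1.91 to 5.18, which is above counting noise. In the next pairs this ratio was between 181 and 295. All 7 pairs met the limits on Ddx4, Figla and Zp3, and each pair was averaged and counted as 1 cell. With each of the 83 libraries counted instead, or with these cells left out, the difference in Id3 given below was 0.99 or 0.91 in place of 0.92.

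Id proteins are helix-loop-helix proteins without a DNA-binding region. They pair with E proteins and related factors and keep them from DNA. Id genes are known as direct targets of BMP signalling, in which ligand-bound receptors phosphorylate Smad1, Smad5 and Smad9, which enter the nucleus with Smad4. In the perinatal ovary, germ cells leave their cysts and join pregranulosa cells to form primordial follicles, and Figla, Sohlh1, Sohlh2, Lhx8 and Nobox are factors that germ cells need for this step.

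The promoter sequences of the other Id genes are shown because their transcripts were measured beside that of Id1. Each covers 250 bases before to 50 bases after the start of the gene on its own strand (RefSeq, GRCm38.p6). The starts in GENCODE M21 differ, at chr4:136143497 for Id3, chr12:25097140 for Id2 and chr13:48261228 for Id4. By these, the windows of Id3 and Id2 lie within the gene and that of Id4 lies before it. Capitals mark the letters GGCGCC, a GC-rich sequence bound by Smads, and CAGAC or its reverse complement GTCTG, which holds the Smad box. Both strands were searched.
Id3, chr4:136143572-136143871, plus strand: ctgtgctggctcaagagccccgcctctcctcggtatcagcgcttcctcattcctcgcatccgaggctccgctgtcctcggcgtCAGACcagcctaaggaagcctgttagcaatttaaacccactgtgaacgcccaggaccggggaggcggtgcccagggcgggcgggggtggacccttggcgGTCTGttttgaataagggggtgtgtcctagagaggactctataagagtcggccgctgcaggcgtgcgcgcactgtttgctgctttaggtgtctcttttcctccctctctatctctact
Id2, chr12:25096043-25096342, minus strand: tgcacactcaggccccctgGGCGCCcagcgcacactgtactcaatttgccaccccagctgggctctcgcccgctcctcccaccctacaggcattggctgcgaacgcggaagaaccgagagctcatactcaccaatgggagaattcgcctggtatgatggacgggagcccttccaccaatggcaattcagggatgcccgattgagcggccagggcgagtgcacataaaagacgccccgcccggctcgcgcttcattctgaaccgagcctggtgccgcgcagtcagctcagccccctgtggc
Id4, chr13:48260866-48261165, plus strand: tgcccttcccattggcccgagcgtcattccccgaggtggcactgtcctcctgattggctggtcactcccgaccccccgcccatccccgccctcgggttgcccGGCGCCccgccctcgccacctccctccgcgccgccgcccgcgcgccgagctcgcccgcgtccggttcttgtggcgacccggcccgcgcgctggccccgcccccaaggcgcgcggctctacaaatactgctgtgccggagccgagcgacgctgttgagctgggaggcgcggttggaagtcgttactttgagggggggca
The Id3 window held 2 CAGAC or GTCTG and no GGCGCC, and the windows of Id2 and Id4 each held 1 GGCGCC and no CAGAC. Of 32851 promoters of the same length, 49.6% held CAGAC on either strand and 11.9% held GGCGCC. Id1 itself lies at chr2:152736251-152737410 on the plus strand (GENCODE M21, GRCm38).

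Id1 was abundant in every one of the 76 cells. Its TPM ran from 3844 to 9977 (median 5288) in Id1-high cells, from 1922 to 3843 (median 2844) in middle cells and from 469 to 1914 (median 1397) in Id1-low cells. The level changed without a gap at either boundary, since the last Id1-high cell had 3844 TPM and the next cell 3843, and the last middle cell had 1922 TPM against 1914 in the next. The limits on Figla and Zp3 fell in gaps among cells that met the other limits. With Zp3 under 10 TPM, the lowest Figla inside the limit was 395 TPM and the highest outside it was 292. Cells with more Zp3 did lie between these values, such as 1 with 342 TPM of Figla. With Figla of at least 300 TPM, the highest Zp3 inside was 4.14 TPM against 10.3 in the lowest cell outside.

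Id3 moved in part with Id1. In Id1-high cells Id3 ran from 218 to 4873 TPM (median 1651), in middle cells from 244 to 2049 (median 901) and in Id1-low cells from 133.6 to 1854 (median 751). The ranges overlapped, and the values above 2049 TPM were all in Id1-high cells. The mean log2(TPM + 1) of Id3 was 10.42 ± 1.20 (SD over 25 cells) in Id1-high and 9.49 ± 1.00 in Id1-low cells, a difference of 0.92, and Spearman's rho with Id1 over the 76 cells was 0.42.

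Id2, which had ranges of 40.02 to 2152, 35.1 to 1957 and 35.6 to 2636 TPM in Id1-high, middle and Id1-low cells, did not follow the order of Id1. Its medians were 722, 285 and 519 TPM, lowest in the middle cells, and its difference between Id1-high and Id1-low cells was 0.27 with a rho of 0.12. Id4 was far lower, with medians of 12.97, 6.41 and 1.03 TPM and highest values of 48.99, 54.02 and 52.8 TPM. It reached 1 TPM in 20 of 25, 15 of 26 and 13 of 25 cells, and the difference of its mean log2(TPM + 1) was 1.43, or -0.0096 in the 22 cells with every globin gene under 10 TPM.

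**Figure D1:**
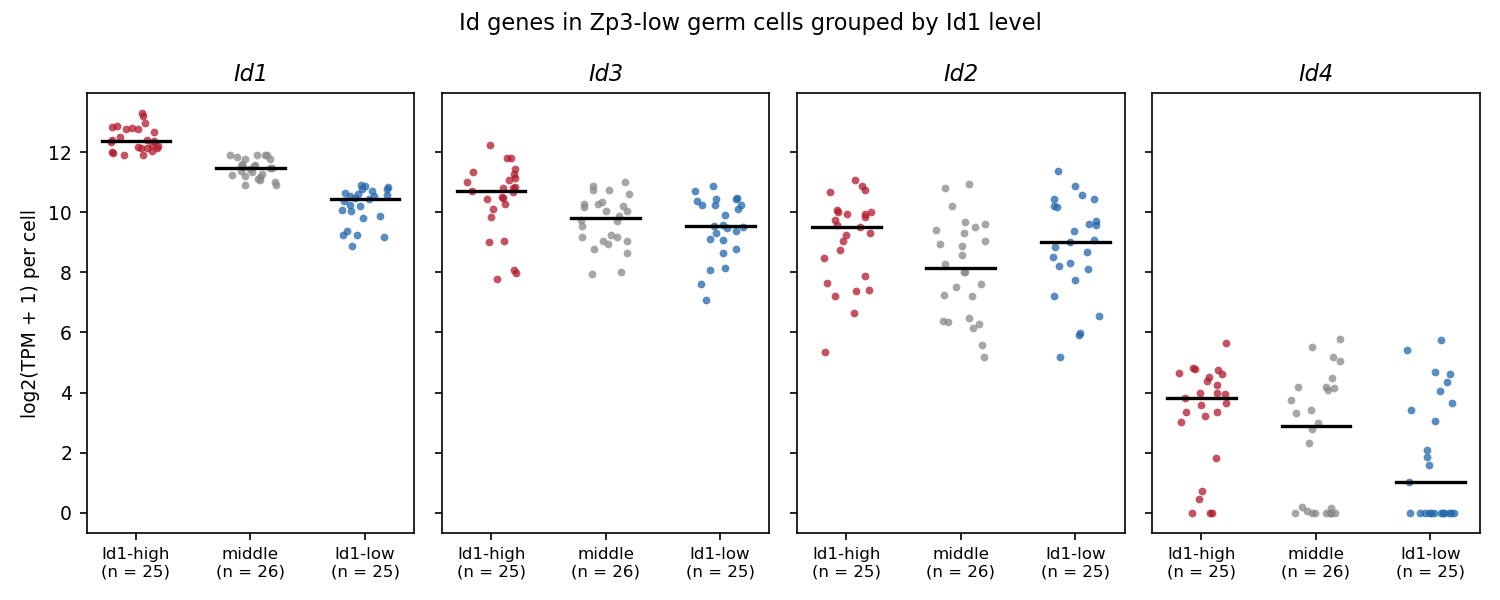
Level of Id1, Id3, Id2 and Id4 as log2(TPM + 1) in each of the 76 cells, 1 point per cell, with black bars at the medians of the 25 Id1-high, 26 middle and 25 Id1-low cells. Id1 does not overlap between groups because it defined them, while the points of Id3, Id2 and Id4 overlap in all 3 groups, and Id4 has many cells at 0.

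Figla, whose level was one of the limits, was at a median of 1630 TPM in Id1-high and 1513 TPM in Id1-low cells and differed by 0.03. Ddx4 was lower in Id1-high cells, with 33.01 to 542 TPM (median 165.5) against 72.9 to 527 TPM (median 272), a difference of -0.84. Of the germ cell markers beyond Ddx4, all 6 lay below 0, and Nobox (-1.16) was the member past 2-fold. Of 12054 coding genes at a mean of 1 TPM in either group, 5522 lay below 0 and 6.51% were lower by at least 2-fold. Dazl, Mael, Tex101 and Sycp3 were between -0.28 and -0.07.

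The absence of zona expression held for Zp3 but not for Zp2, the gene of another zona pellucida protein. Zp2 reached 10 TPM in 7 of 25 Id1-high, 11 of 26 middle and 18 of 25 Id1-low cells. It ran from 0 to 63.3 TPM (median 0.197) in Id1-high cells and from 0 to 311 TPM (median 48.98) in Id1-low cells, so the ranges overlapped. The highest value, 478 TPM, was in a middle cell. The cells are therefore called Zp3-low below.

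When the 40 cells with under 10 TPM of Zp2 were ranked again by Id1, a choice made after the data were seen, all 13 of the highest cells were Id1-high cells, and of the 13 lowest, 7 were Id1-low and 6 were middle cells. Id3 then ran from 218 to 4873 TPM (median 1792) in the upper and from 133.6 to 1210 TPM (median 541) in the lower group, a difference of 1.58. Id2 ran from 98.4 to 1857 TPM (median 907) against 35.1 to 723 TPM (median 181), a difference of 1.85 where it had been 0.27 over all Zp3-low cells. In the 40 cells the rho with Id1 was 0.48 for Id3 and 0.41 for Id2, and Id4 differed by 1.12.

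**Figure D2:**
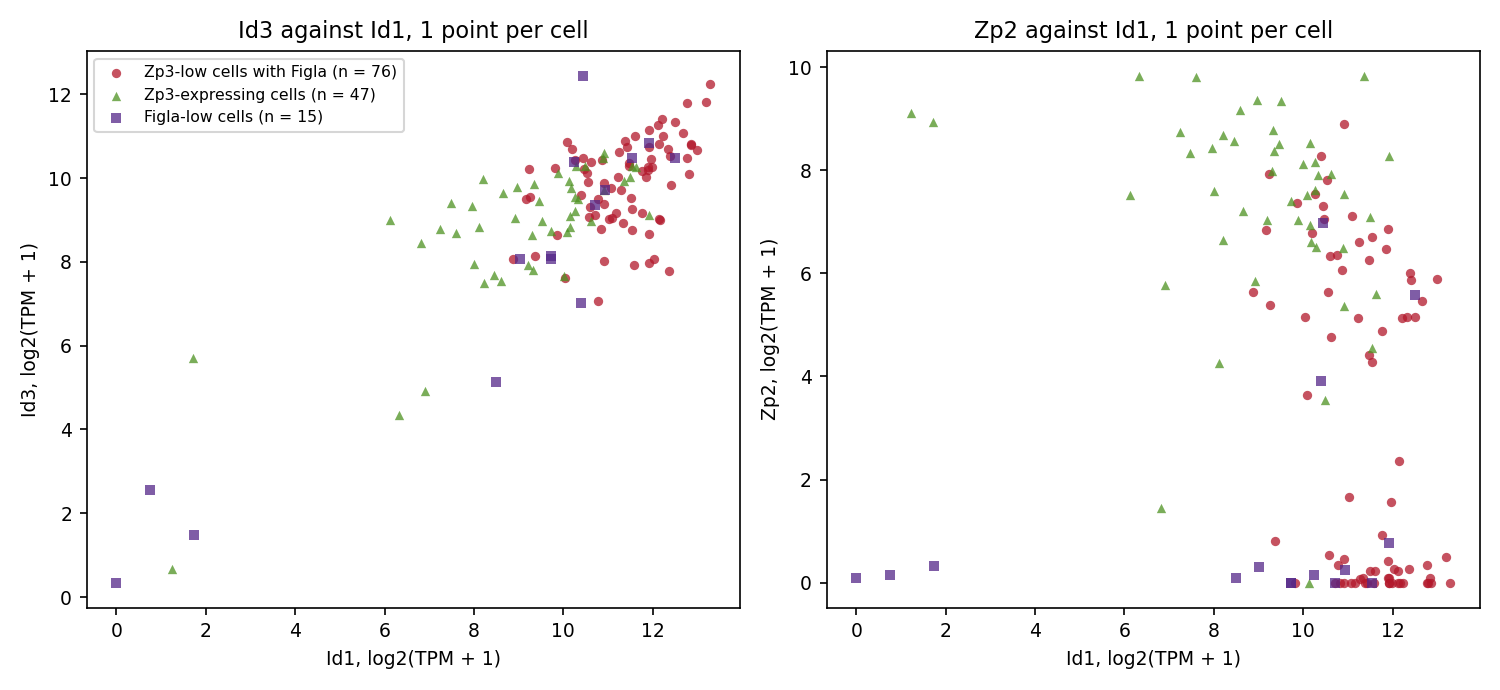
Level of Id3 (left) and Zp2 (right) against Id1, all as log2(TPM + 1), with 1 point for each germ cell: 76 Zp3-low cells with Figla, 47 Zp3-expressing cells and 15 Figla-low cells. Id3 tends to be higher where Id1 is higher in all 3 sets of cells, and in the Zp3-low cells the points with Zp2 near 0 lie mostly at the higher Id1 levels.

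Germ cells outside these limits, which the rule had not used, were ranked by Id1 in the same way. In 47 Zp3-expressing cells Id1 ran from 1.35 to 3887 TPM (median 697) and Id3 from 0.595 to 1551 TPM (median 550). Between the 15 highest and 15 lowest of them by Id1, Id3 differed by 2.45, Id2 by 1.43 and Id4 by 1.33, where Id1 itself differed by 4.18 against 2.23 in Zp3-low cells. In 15 Figla-low cells, in which Id1 ran from 0 to 5795 TPM, Id3 differed by 6.66 and Id2 by 5.33 with 5 cells at each end. Of the 5 lowest cells, 3 had under 10 TPM of Id1 and 0.271 to 4.86 TPM of Id3, and without them, with 4 cells at each end, Id3 differed by 3.02 and Id2 by 2.48. In the Zp3-expressing cells 2 were under 10 TPM of Id1, and without them Id3 differed by 1.73. These limits on Id1 were chosen after the data were seen. The rho of Id3 with Id1 was 0.67 in Zp3-expressing and 0.87 in Figla-low cells, over wider ranges of Id1 than in the Zp3-low cells. Without the cells under 10 TPM of Id1 it was 0.62 and 0.76. The Figla-low cells then ran from 359 to 5795 TPM of Id1, which is no wider range than in the Zp3-low cells. A test of the difference between these sets of cells was not run, since all are cells of 1 litter.

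Across 7811 coding genes whose mean reached 10 TPM in 1 group or both, 953 (12.2%) were higher by at least 2-fold in the mean of log2(TPM + 1) in Id1-high cells and 746 (9.55%) were lower. The median difference over all of them was 0.05. This balance depended on the scale of total RNA. With TPM divided by the spike-in RNA of each cell 408 genes were higher and 1281 lower, and with the cells ranked by Id1 per spike-in RNA the counts were 2449 higher and 164 lower. In the latter ranking 16 of the 25 Id1-high and 19 of the 25 Id1-low cells were the same cells. No gene is called changed here, and the percentages serve as the background for the lists below.

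**Figure D3:**
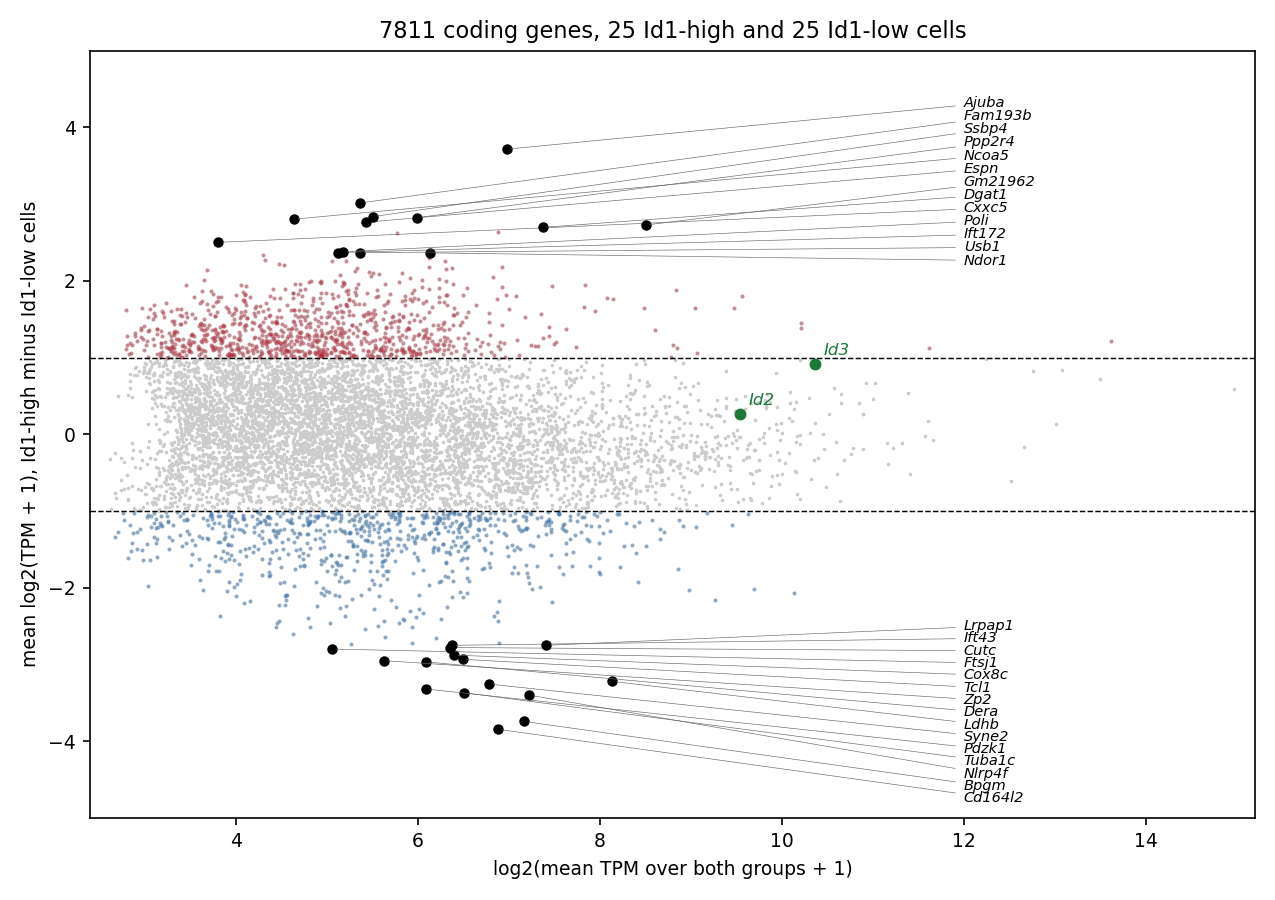
Difference of mean log2(TPM + 1), 25 Id1-high minus 25 Id1-low cells, against the log2 of the mean TPM over both groups plus 1, for 7811 coding genes, with dashed lines at 2-fold and 13 of the most different genes named above 0 and 15 below it. Red and blue points are the 953 higher and 746 lower genes, and the larger differences sit at low and middle levels of expression, with Id3 (0.92) and Id2 (0.27) in green.

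Among the genes with the largest differences towards Id1-high cells that were seen at 1 TPM in at least 50% of these cells, 13 are described. One of them was Ajuba, a LIM-domain scaffold gene of cell junctions and Hippo signalling. Ajuba ran from 4.29 to 535 TPM (median 161.5) in Id1-high, from 0 to 434 (median 100.5) in middle and from 0 to 280 TPM (median 8.40) in Id1-low cells. It reached 1 TPM in all 25 Id1-high and in 13 of 25 Id1-low cells, and its difference was 3.72. The genes Ppp2r4 and Gm21962 were also seen in every Id1-high cell. Ppp2r4, which encodes an activator of the phosphatase PP2A, ran from 7.82 to 213 TPM (median 77.95) in Id1-high and from 0 to 275 TPM (median 9.12) in Id1-low cells.

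Gm21962, a predicted gene, was the most abundant of the 13, with 43.7 to 1423 TPM (median 554) in Id1-high and 0 to 642 TPM (median 96.1) in Id1-low cells. The ranges of all these genes overlapped, and for several the groups also differed in how many cells showed the transcript. The choice of genes by their difference and by detection in Id1-high cells favoured this, so the counts only describe the genes. Cxxc5, a CXXC zinc finger gene, reached 1 TPM in 18 Id1-high and 6 Id1-low cells. Espn, which encodes an actin-bundling protein, did so in 17 and 5, Ssbp4 in 18 and 7, and Fam193b in 22 and 9. Ncoa5, a nuclear receptor coactivator gene, was seen in 22 and 11 cells.

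The other genes of this set serve lipid storage (Dgat1, which makes triglycerides, 2.70), DNA damage bypass (Poli, 2.38), intraflagellar transport (Ift172, 2.37), U6 RNA maturation (Usb1, 2.37) and electron transfer (Ndor1, 2.37). Dgat1 had medians of 202 and 66.2 TPM in Id1-high and Id1-low cells and Ndor1 of 75.1 and 25.0 TPM. Poli, Ift172 and Usb1 had medians of 33.03, 37.8 and 72.4 TPM in Id1-high cells and under 1 TPM in Id1-low cells. In the 22 cells with every globin gene under 10 TPM, ranked again with 7 cells at each end, Ssbp4 (-0.049), Espn (-0.82) and Usb1 (-0.55) had differences below 0. Most of the 22 cells were numbered 41 or lower in the library names. The upper 7 cells reached down to 2430 TPM of Id1, within the range of the middle cells, and the lower 7 had at most 1470 TPM. Of the 28 genes given as most different in both directions and Id4, 15 kept a 2-fold difference there, 9 had a smaller one in the same direction and 5 turned their sign. Of 7928 coding genes at 10 TPM in these cells, 1555 were higher and 1632 lower by at least 2-fold.

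In the other direction, the 15 genes with the largest difference held several that are known from growing oocytes. Nlrp4f, an oocyte NLRP gene, ran from 0 to 447 TPM (median 0.0404) in Id1-high, from 0 to 1097 (median 17.2) in middle and from 0 to 882 TPM (median 178) in Id1-low cells. Ldhb, the lactate dehydrogenase gene that oocytes express strongly, ran from 0 to 929 TPM (median 20.2) in Id1-high and from 0 to 2287 TPM (median 366) in Id1-low cells. Both were seen in more Id1-low cells, Nlrp4f in 21 against 11 and Ldhb in 22 against 15. The choice of these 15 genes by their difference and by detection in Id1-low cells favoured this, here and for the counts below. Tcl1, an oocyte coactivator of Akt, had medians of 0.782 and 84.9 TPM and reached 1 TPM in 12 Id1-high and 20 Id1-low cells.

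Bpgm, the bisphosphoglycerate mutase gene, had a lowest, median and highest value of 0, 23.3 and 238 TPM in Id1-high and of 0, 213 and 555 TPM in Id1-low cells. It was seen in 15 and 24 cells, and its difference was -3.74. Cd164l2, with the largest difference (-3.85), had medians of 0.145 and 108.2 TPM, but its highest value was 961 TPM in Id1-high and 673 TPM in Id1-low cells. Tuba1c, an alpha-tubulin gene, also had a higher top value in Id1-high cells, 1104 against 455 TPM, although 8 of those cells reached 1 TPM against 21 Id1-low cells. Its difference was 0.96 in the cells with every globin gene under 10 TPM.

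Syne2, a gene of the linker between nucleus and cytoskeleton, was seen in 11 and 19 cells, and Pdzk1, a PDZ scaffold gene, in 7 and 17. Lrpap1, a chaperone gene for receptors of the LDL receptor family, was more uniform, with medians of 63.2 and 246 TPM and 19 and 24 cells at 1 TPM. The rest were Dera, which splits deoxyribose phosphate, Cox8c, a cytochrome oxidase subunit gene, Ftsj1, a tRNA methyltransferase gene, Cutc, linked to copper handling, and Ift43 of intraflagellar transport. Their differences lay between -2.97 and -2.75, and their medians between 0 and 1.58 TPM in Id1-high and between 37.4 and 116.5 TPM in Id1-low cells.

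**Figure D4:**
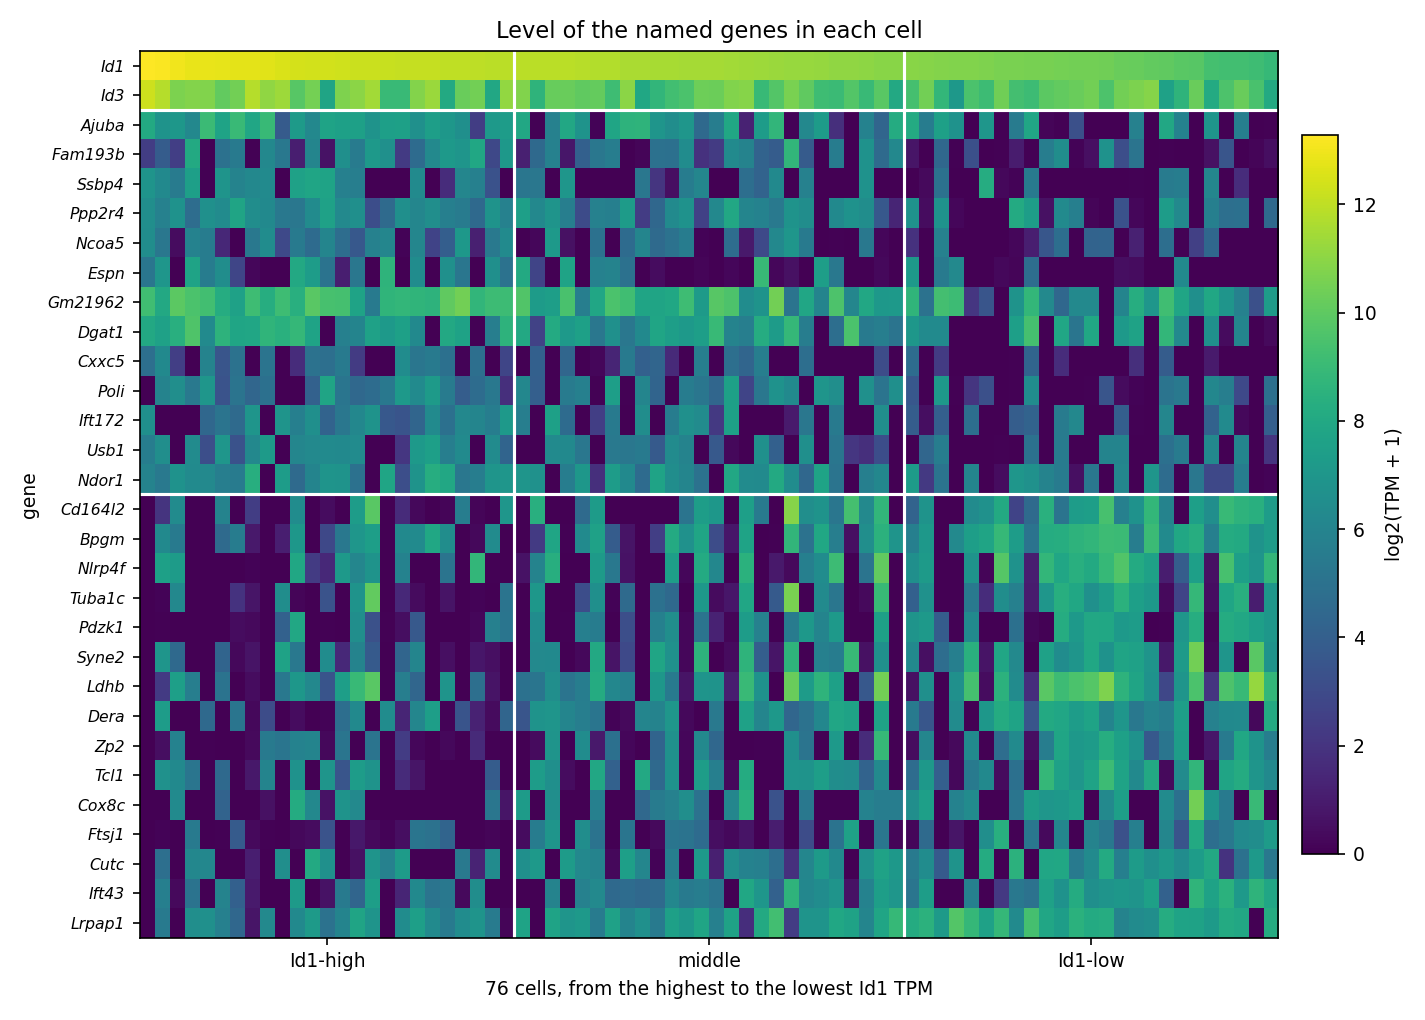
Level of Id1, Id3, 13 genes higher and 15 genes lower in Id1-high cells, as log2(TPM + 1), in each of 76 cells ordered from the highest to the lowest Id1, with white lines between groups. Most of the 28 genes are at or near 0 in some cells of every group, and the upper block is filled more often on the left and the lower block on the right.

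Over the 76 cells taken singly, without groups, the highest rank correlations with Id1 were those of Rpl22l1 (0.63), a paralog of a ribosomal protein gene, Rpl37a (0.54), Gm21962 (0.53), Ajuba (0.52) and Lars2 (0.52), the mitochondrial leucyl-tRNA synthetase gene. Rpl22l1 ran from 688 to 3337 TPM (median 1692) in Id1-high and from 166 to 2758 TPM (median 572) in Id1-low cells. The lowest were Parl (-0.59), which encodes a protease of the inner mitochondrial membrane, Lrpap1 (-0.56), Bpgm (-0.56), Rnaset2b (-0.55), a ribonuclease gene, and Chchd6 (-0.51), of the mitochondrial cristae. Parl ran from 0.190 to 1287 TPM (median 273) in Id1-high and from 282 to 2276 TPM (median 818) in Id1-low cells. Id3 with a rho of 0.42 was below these, and 95% of the 7811 genes lay between -0.34 and 0.31, with a median of 0.0053. The cells come from 1 litter and differ in depth, and reads of Rpl37a and of other ribosomal genes may be split with processed copies, so these values are uncertain.

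Genes of TGF-beta superfamily signalling, of which BMP signalling is a part, were given by lists, with at least 1 TPM in the mean of either group asked of each member. Of 12054 coding genes that met this, 8.45% were higher and 6.51% lower by at least 2-fold, and the median difference was 0.07. Of 14 ligand genes of the TGF-beta superfamily 8 were measured, none was higher by 2-fold and Gdf9 (-1.38), an oocyte growth factor gene, was lower. Gdf9 reached 1 TPM in 2 Id1-high and 8 Id1-low cells and up to 22.9 and 148 TPM. Bmp2, Bmp6, Bmp7, Gdf3, Tgfb2, Tgfb3 and Inha had medians under 1 TPM in all groups, and Bmp4 exceeded 1 TPM in 1 of the 76 cells.

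The receptor genes did not differ by 2-fold in either direction. Bmpr1a, a type I BMP receptor gene, had medians of 17.6, 18.6 and 23.1 TPM in Id1-high, middle and Id1-low cells, and Bmpr2, the type II receptor gene, of 5.35, 5.38 and 7.51 TPM. Tgfbr1 had 19.1, 12.8 and 15.7 TPM. The median difference of the 8 receptor genes measured was 0.25, and Bmpr1b had a median of 0 in each group and reached 1 TPM in 1 middle cell.

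Among the Smads, Smad5 was lower (-1.15) and Smad1 had a positive difference (0.86) that stayed below 2-fold. Smad5 reached 1 TPM in 9 Id1-high and 16 Id1-low cells, with medians of 0.135 and 5.15 TPM, and Smad1 did so in 10 and 5. Smad4, the shared partner, had medians of 9.90 and 43.1 TPM but was seen in 15 cells of each group. Smad2 had 42.6 and 54.02 TPM. The median over these 4 genes was -0.31, and it was 0.69 when Id1 was ranked per spike-in, where the median of all genes at 10 TPM was 0.57.

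Of 15 genes of BMP feedback and targets 10 were measured. All 10 had differences above 0, with a median of 0.56, and 3 were higher by at least 2-fold, where 6532 of all 12054 genes were above 0. Scarce members could meet the limit of 1 TPM through the Id1-high cells alone, so the common sign was favoured by this limit. The median of the list was 0.50 without the limit, -0.50 in the 22 cells with every globin gene under 10 TPM, ranked again, and 0.16 as a difference of medians. Smurf2, a ubiquitin ligase gene that limits Smad signalling, ran from 0 to 81.6 TPM (median 21.2) in Id1-high and from 0 to 66.2 TPM (median 4.05) in Id1-low cells. Its relative Smurf1 reached 1 TPM in 14 and 9 cells, with medians of 8.52 and 0.0591 TPM. Tob1, a gene of an inhibitor of Smad signalling and cell growth, had medians of 30.9 and 16.2 TPM, and the ranges of all 3 genes overlapped. The better known targets were scarce, with Smad7 at 1 TPM in 6 and 2 cells, Bambi in 10 and 6, Msx2 in 6 and 2 and Msx1 in 4 and 1. Smad6, which was below the limit of the list, was seen in 2 and 1.

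Genes of the helix-loop-helix partners of Id proteins showed no common direction, with a median of 0.14 over 13 genes. The E protein genes were Tcf3 (medians of 66.4, 112.4 and 59.6 TPM in Id1-high, middle and Id1-low cells, 0.49), Tcf12 (95.4, 85.05 and 87.97 TPM, 0.59) and Tcf4 (16.3, 11.6 and 22.6 TPM, -0.52). Of the germ cell factors, Sohlh2 was lower in Id1-high cells (-1.23), with 0 to 151 TPM (median 52.4) against 0 to 405 TPM (median 107.6), while its partner Sohlh1 had medians of 372 and 281 TPM and a difference of 0.91. Usf2 was higher (1.62), seen in 15 and 9 cells. Hes1, a repressor gene downstream of Notch, had medians of 151 and 96.8 TPM, and its highest value, 1199 TPM, was in an Id1-low cell.

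Among 7 follicle factors, Nobox, a homeobox gene of early oocytes, was lower besides Sohlh2. It ran from 0 to 544 TPM (median 250) in Id1-high, from 0.545 to 683 TPM (median 210) in middle and from 3.01 to 771 TPM (median 425) in Id1-low cells, a difference of -1.16. By at least 2-fold, 6.51% of all 12054 genes were lower. Lhx8 had medians of 573, 584 and 775 TPM and a difference of -0.05. Foxo3, which holds primordial follicles at rest, differed by 0.24 and Kit, the receptor for the growth signal from pregranulosa cells, by -0.76 with medians of 101.96, 155 and 175 TPM.

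The study knocked down Id1 in cultured ovaries and assayed Figla, Nobox, Lhx8, Gdf9, Cd55, Sdc1 and the cell cycle inhibitors Cdkn2a and Cdkn1a. It reports significantly lower Figla, Nobox, Lhx8 and Gdf9 and large changes in the others. That assay was on whole ovaries, and the values here are from untreated single germ cells. Among the 7 assayed genes other than Figla, 3 were lower by at least 2-fold in Id1-high cells and none was higher, with a median of -0.29. Over all 12054 genes, 6.51% were lower and 8.45% higher. Nobox and Gdf9, which fell after knockdown, were thus lower in Id1-high and not in Id1-low cells. The median was 0.18 in the cells with every globin gene under 10 TPM, 0.22 with Zp2 under 10 TPM and 0.020 with Id1 ranked per spike-in, so its direction depended on the cells and the ranking. Besides Nobox and Gdf9 this was Sdc1, the syndecan-1 gene, with a median of 10.6 TPM in Id1-high, 0 to 154 (median 70.9) in middle and 0 to 774 TPM (median 65.2) in Id1-low cells. Cd55, which guards cells against complement, differed by 0.04, Cdkn2a by 0.30 and Cdkn1a by -0.29. Cdkn2a and Cdkn1a had medians of 0 in all groups. Of the wider list of 12 cell cycle genes linked to Id proteins, Cdkn1c (1.38) was the member past 2-fold, seen in 18 Id1-high and 13 Id1-low cells.

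The oocyte genes lay mostly below 0. Of 19 measured, 17 had differences below 0, where 5522 of all 12054 genes did. By at least 2-fold, 8 were lower in Id1-high cells and none was higher, against 6.51% and 8.45% of all genes. The median was -0.89, or -0.17 as a difference of medians. Scarce members could meet the limit of 1 TPM through the Id1-low cells alone, so the common sign was favoured by this limit. Without the limit the median of the list was -0.74. Beyond Zp2, Gdf9, Nlrp4f and Ldhb, the genes lower by 2-fold were Nlrp5 (-2.72), Padi6 (-1.83), Ooep (-1.39) and Btg4 (-1.16). Nlrp5, Padi6 and Ooep encode members of the subcortical maternal complex and cytoplasmic lattices of the egg.

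Nlrp5 reached 1 TPM in 2 Id1-high, 6 middle and 11 Id1-low cells and at most 25.0, 55.3 and 915 TPM. Padi6 did so in 2, 6 and 10 cells and reached 6.05, 1184 and 1199 TPM. Ooep, which was seen in most cells, ran from 0 to 91.8 TPM (median 13.9) in Id1-high and from 0.458 to 301 TPM (median 34.9) in Id1-low cells. A few cells thus carried high levels of Nlrp5 and Padi6 while the medians of both stayed under 1 TPM in every group. Ybx2, a germ cell RNA-binding protein gene, had medians of 339 and 365 TPM in Id1-high and Id1-low cells and a difference of -0.14.

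In the 40 cells with under 10 TPM of Zp2, the difference in the oocyte list was much smaller. Because Zp2 is a member of this list and set the limit, the choice of cells itself favoured a smaller difference. Of 17 oocyte genes measured, none was lower by at least 2-fold, 11 were below 0 and the median was -0.24, while Dppa3, an oocyte and primordial germ cell gene, was higher. Of all 11795 coding genes at 1 TPM in these cells 8.64% were lower and 10.8% higher. Ldhb differed by -0.32, Nlrp4f by -0.56, Tcl1 by -0.67 and Bpgm by -0.99 between the ends of the Id1 order in these cells. Of the 28 genes that were given as most different, with Id4 counted and Zp2 left out because it set the limit here, 20 stayed past 2-fold and 8 did not. All 13 upper and 7 of the 13 lower cells had been in the groups that chose these genes, so this count is no independent sign. Those that stayed included Lrpap1 at -3.15, Cox8c at -3.15, Cd164l2 at -2.89 and Cutc at -2.50, and in the upward direction Ift172 at 3.05, Usb1 at 2.79, Cxxc5 at 2.46 and Ajuba at 1.35. Of 7918 coding genes at 10 TPM there, 14.8% were higher and 11.9% lower by at least 2-fold, 26.7% in all.

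Meiosis genes, which mark prophase of the first division, showed almost no shift. Of 28 measured, Mlh3 (1.17) was higher, Top2a (-1.18) was lower and the median was 0.07, the same as over all genes. Sycp3, a gene of the axial element of meiotic chromosomes, had medians of 2899, 3114 and 3179 TPM in Id1-high, middle and Id1-low cells, Sycp1 of 1177, 1040 and 1120 TPM, and Taf7l of 1091, 1049 and 907 TPM. All 3 were above 1 TPM in every one of the 76 cells. Spo11, which makes the meiotic breaks, had medians of 34.9 and 14.1 TPM in Id1-high and Id1-low cells with a difference of 0.96.

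The genes of the middle stage of follicle assembly, a list put together with results of these cells known, had 2 of 11 members lower in Id1-high cells and a median of -0.50, which was 0.080 between the upper and lower 50% of cells, 0.062 with Id1 ranked per spike-in and 0.57 with Zp2 under 10 TPM. Mboat2, a lipid acyltransferase gene, had medians of 0.105, 33.1 and 52.6 TPM and a difference of -2.43, and Sdc1 was the other. Prdx6, a peroxidase gene, and Aen, a nuclease gene, had positive differences of 0.65 and 0.64. By at least 2-fold, 6.51% of all 12054 genes were lower. The study names Sdc1 and Cd55 from these same libraries, so the list is no independent sign of a stage.

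Among signalling lists, Jag1, the Notch ligand gene of oocytes, was lower (-1.48), seen in 5, 12 and 16 cells of the Id1-high, middle and Id1-low groups, and was the 1 of 9 Notch genes past 2-fold. Of 14 Jak and Stat genes Jak1 was lower (-1.48), with medians of 44.8 and 118.3 TPM, and Socs2, a feedback inhibitor gene, was higher (1.41), with 11.4 and 0.636 TPM. Of 18 genes of the Kit and PI3K axis Mtor was higher (1.38), with medians of 45.8, 32.7 and 32.9 TPM in Id1-high, middle and Id1-low cells. Of 16 genes of cell death and checkpoints 2 were higher (Apaf1 and Chek2) and 2 lower (Bid and Trp63, the gene of the oocyte quality control factor p63). Among all 12054 genes, 8.45% were higher and 6.51% lower by at least 2-fold, so a single member past 2-fold is no sign of a list.

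Immediate early and stress genes were examined since dissociation can raise them. Of 20 immediate early genes 3 were higher, Gadd45g (2.22), Gadd45b (1.89) and Klf10 (1.31), and the median was 0.29. Fos reached 1 TPM in 3 Id1-high and 0 Id1-low cells, Jun in 3 and 1 and Egr1 in 3 and 6, so these members were seen in few cells of either group. Klf10, a TGF-beta inducible gene, was common, with medians of 63.5, 63.5 and 29.2 TPM in Id1-high, middle and Id1-low cells. Of 11 heat shock chaperones Dnajb1 was higher (1.18) and Hsph1 lower (-1.12), and Hspa1a was under 1 TPM in all Id1-high cells and in 24 of 25 Id1-low cells. Over all 12054 genes, 8.45% were higher and 6.51% lower by at least 2-fold.

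Larger groups of housekeeping genes had medians on opposite sides of 0, by small amounts. Of 81 cytosolic ribosomal protein genes, S6 kinases and Rps19bp1 left out, 60 were above 0, with a median of 0.34, 4 higher and none lower by 2-fold, where 6532 of all 12054 genes were above 0. Rps20 had medians of 1529, 926 and 648 TPM in Id1-high, middle and Id1-low cells, and Rpl36a of 649, 410 and 378 TPM, with the same doubt over copies as above. Of 90 nuclear genes named for the respiratory complexes, assembly factors included, 67 were below 0, against 5522 of all genes, with a median of -0.26, none higher and 10 lower, of which 9 were among the 81 that are not assembly or coupling factors. With TPM per spike-in the median of the list of 89 names that the plot of gene lists shows as ribosomal, with the kinases and Rps19bp1, was -0.012, and that of the respiratory list was -0.61, while the median of all genes at 10 TPM moved from 0.049 to -0.30. Past 2-fold were 8.45% of all 12054 genes upward and 6.51% downward. Sdhd, a subunit gene of succinate dehydrogenase, ran from 0 to 219 TPM (median 75.7) in Id1-high and from 48.4 to 809 TPM (median 193) in Id1-low cells. Ndufa9, of complex I, ran from 0 to 471 TPM (median 178.5) against 94.5 to 505 TPM (median 196.5), and reached 1 TPM in 21 Id1-high and all 25 Id1-low cells.

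**Figure D5:**
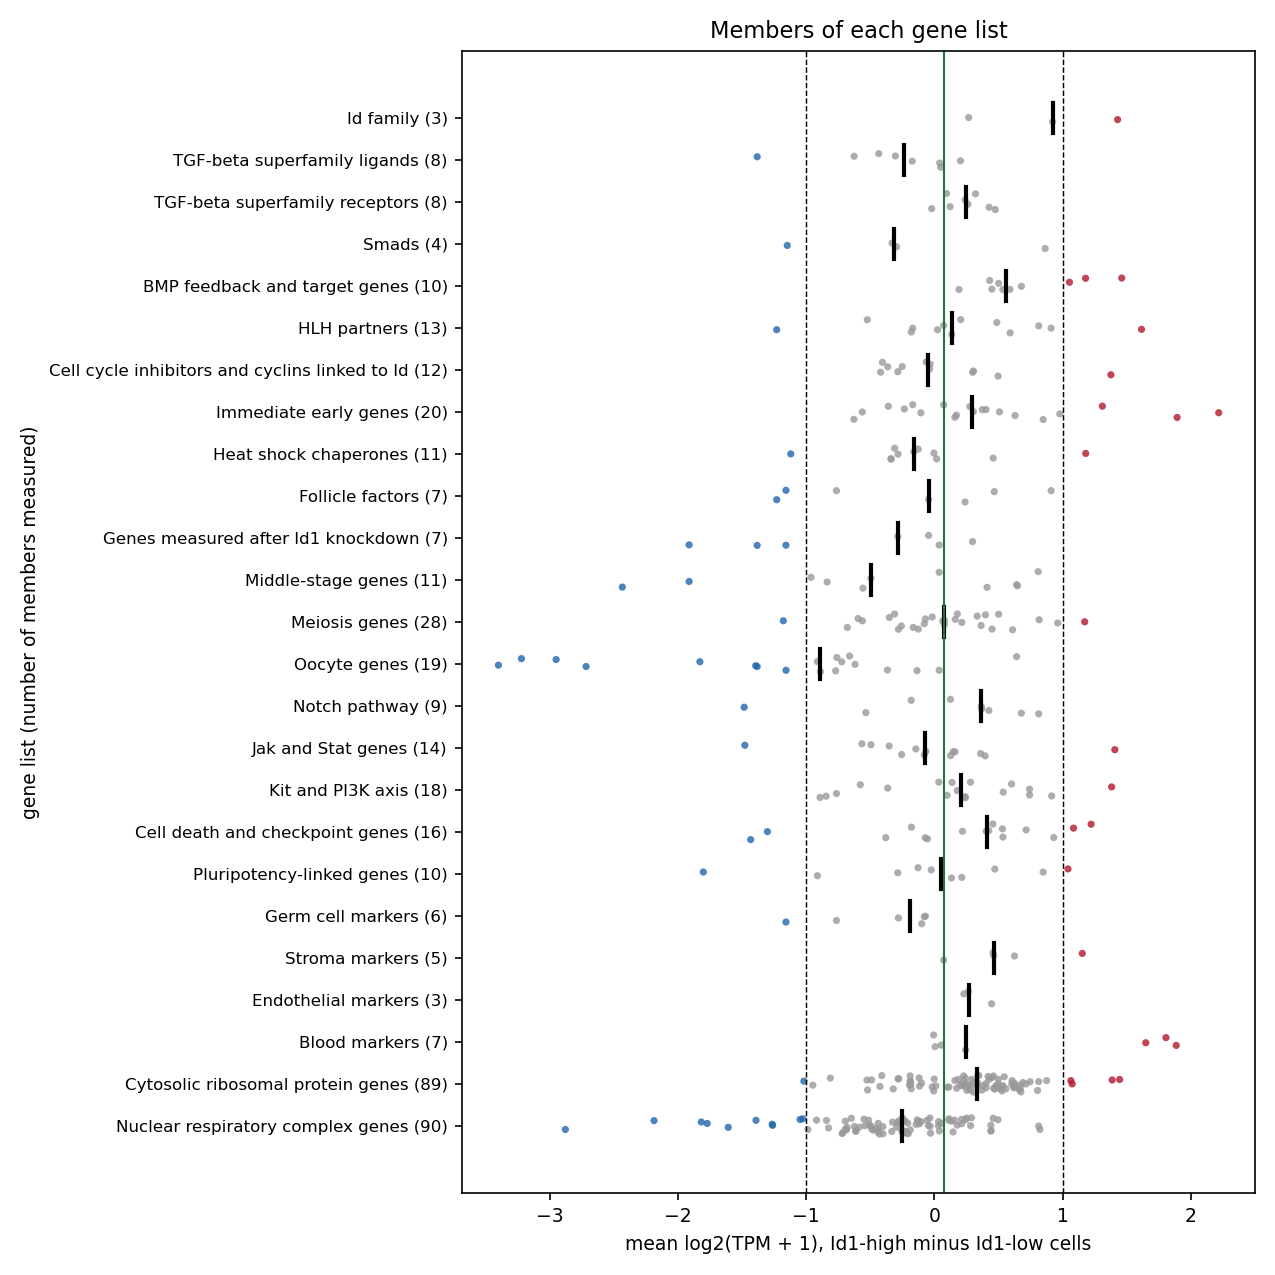
Difference of mean log2(TPM + 1), 25 Id1-high minus 25 Id1-low cells, for every measured member of 25 gene lists with at least 3 members measured, 1 point per gene, with a black bar at the median of a list, dashed lines at 2-fold and a green line at the median of all 12054 genes (0.07). The points of the oocyte list reach furthest to the left and the meiosis genes are centred on the green line. Of 15 BMP feedback genes, the 10 that met the limit of 1 TPM in either group lie right of 0.

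Several properties of the libraries moved with the groups, and their part in the differences was not tested. Reads on genes had medians of 8675120 in Id1-high, 8960240 in middle and 10690800 in Id1-low cells, within a range from 6020170 to 33117400. The reads of merged pairs of libraries were summed, and the highest value is such a sum. Spike-ins took a median of 0.574%, 0.366% and 0.356% of the reads, and mitochondrial genes 7.51%, 5.56% and 5.22%. The number of genes at 1 TPM had medians of 8843, 8882 and 8183. Its lowest values were 6778, 4835 and 3208 and its highest 11207, 10457 and 11164, so the poorest libraries were Id1-low cells. The counts of cells at 1 TPM and the differences given above were not adjusted for this. The rho of Id1 was -0.32 with reads, 0.27 with the spike-in share and 0.35 with the mitochondrial share. Longer transcripts tended to be higher in Id1-high cells, from a median difference of -0.18 in the shortest to 0.33 in the longest of 5 equal groups of genes. The spread over cells was larger in Id1-low than in Id1-high cells for 61.9% of the genes.

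Summed markers of stroma, pregranulosa, endothelial and surface epithelium cells had medians under 10 TPM in each group. Single cells reached higher sums of stroma, pregranulosa and endothelial markers, and blood markers were higher. The rho of Id1 with the summed level was 0.34 for stroma, 0.28 for blood, 0.19 for endothelial, 0.046 for pregranulosa and 0.039 for surface epithelium markers, and the part of those that moved with Id1 was not tested. Of 10 stroma markers 5 were measured and all had differences above 0, with a median of 0.46 that was -0.044 in the cells with every globin gene under 10 TPM and 0 as a difference of medians. Of all 12054 genes, 6532 were above 0. Scarce markers could meet the limit of 1 TPM through the Id1-high cells alone, and without this limit the median of the list was 0.097. The summed stroma level ran from 0 to 879 TPM (median 7.42) in Id1-high, from 0 to 93.7 TPM (median 1.63) in middle and from 0 to 39.6 TPM (median 0.322) in Id1-low cells, and it reached 10 TPM in 11, 7 and 7 cells. Nr2f2 (1.15) was the member past 2-fold, while Col1a1 and Col3a1, which define stroma, were at 1 TPM in 4 and 2 Id1-high and in no Id1-low cells. Of 12 pregranulosa markers 2 were measured, with summed medians of 0.423, 0.885 and 0.416 TPM and highest sums of 82.1, 21.1 and 50.8 TPM, and Foxl2 did not exceed 0.0414 TPM in any Id1-high or Id1-low cell. Amhr2 and Nr5a1 were at 0 in all Id1-high cells, and the stroma markers Tcf21, Postn and Acta2 were at 0 in all Id1-low cells.

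Of 8 endothelial markers 3 were measured and all had differences above 0, where 6532 of all 12054 genes did. Their median was 0.27, and that of the list was 0.029 without the limit of 1 TPM. The summed level had medians of 0.156, 0.0529 and 0.0272 TPM and highest values of 52.5, 13.6 and 11.4 TPM. Emcn, Esam and Egfl7 were at 0 in all Id1-high cells, and Cldn5 was at 0 in all Id1-low cells. Without the cells highest in somatic markers, and with the rest ranked again, Id3 differed by 0.71. Globin RNA was present in most cells, with summed medians of 106.8, 59.5 and 27.3 TPM, and Hba-a1, Hba-a2 and Hbb-bs were higher by at least 2-fold in Id1-high cells, while the other 4 blood markers measured differed by -0.0069 to 0.24. The sum over all blood markers ran up to 39446, 48602 and 17249 TPM. Hba-a1 and Hba-a2 are near-identical copies, so their separate values are uncertain. The 4 surface epithelium markers had no member at a mean of 1 TPM and highest sums of 8.39, 2.498 and 1.59 TPM.

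The groups were also unevenly spread over the numbers in the library names, which carry no stated meaning. Of 19 cells numbered from 1 to 37, 1 was Id1-high and 10 were Id1-low, and of 26 numbered from 38 to 73, 14 were Id1-high and 3 were Id1-low. In the cells numbered 38 and up alone, ranked again, Id3 differed by 1.08.

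Little of the pattern over genes recurred in germ cells with Zp3. Between the ends of the Id1 order in the 47 Zp3-expressing cells, the 953 genes higher in Id1-high Zp3-low cells had a median difference of 0.048 and the 746 lower genes of 0.21, with a median of 0.19 over all 7811 genes. Of 7864 genes compared there, 12.9% were higher and 7.04% lower by at least 2-fold. Of the 13 genes named as higher in Id1-high cells 7 kept their sign there, and of the 15 named as lower 9 did. Among those that kept it, Ajuba had medians of 8.40 and 0.633 TPM in the cells with most and least Id1, Ldhb of 1255 and 1539 TPM and Zp2 of 136.1 and 347 TPM. Among those that turned, Ssbp4 differed by -2.17 and Lrpap1 by 1.11. In the Figla-low cells the medians of the higher and lower genes were -0.080 and -0.17, against -0.16 over all genes. Id3, Id2 and Id4 had differences above 0 in both sets.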

How the data were processed

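The authors quantified each single-cell library with Salmon against mm10 transcripts and the spike-in sequences. The deposited files give, for each gene symbol, TPM and an estimated count of reads, and both are the authors' values. TPM was used for levels and the estimated counts for depth and shares of reads. TPM corrects for transcript length and sums to a fixed total, so a gene can differ because other genes take more of the total.

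Of 52605 symbols, 19780 were coding genes by GENCODE M21 or RefSeq names, and 24387 symbols, which include the 92 spike-ins, matched no gene. The members and gene lists were chosen with earlier results of these data known. Libraries with a Pearson correlation above 0.95 over coding genes were taken as 1 cell, with mean TPM and summed counts. Cells with at least 1 TPM of Ddx4, at least 300 TPM of Figla and under 10 TPM of Zp3 were ranked by Id1. Differences are those of mean log2(TPM + 1), Id1-high minus Id1-low, for coding genes whose mean reached 10 TPM in 1 group or both (1 TPM for members of lists), with Id1, Ddx4, Figla and Zp3 left out. A difference of 1 or more, or -1 or less, is 2-fold on this scale, which understates changes of low genes.

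The named genes are the Id genes, members of the signalling, helix-loop-helix and Id1-knockdown lists, the 15 largest differences in each direction among genes that 50% or more of the cells in the higher group held at 1 TPM, the 5 highest and 5 lowest rank correlations with Id1, and up to 4 members of each other list. Others, such as Bmp4, Smad6 and defining somatic markers, were named after their values were seen. Of the 15 genes with the largest difference towards Id1-high cells, 13 are given, and the other two are not reported here. The cells come from 1 litter and the labels name no animal, so no p-value was computed. Reads assigned to genes in the 76 cells ran from 6020170 to 33117400, the latter summed over a merged pair of libraries. Python 3.11.15, pandas 2.3.3, NumPy 2.4.6, SciPy 1.17.1 and Matplotlib 3.10.9 were used, and the calculation of differences was tested on simulated data. Alternatives for the pseudocount, scaling, ranking, cell limits and each left-out cell were run.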

Additional observations from a re-analysis of the deposited data

How the results depend on the processing

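The difference in Id3 stayed above 0 under every alternative run, and was smallest, 0.57, with TPM per spike-in. It was 1.02 as a ratio of means, 1.13 on medians, 1.04 with Id1 ranked by CPM, 1.08 in cells numbered 38 and up, 1.58 with Zp2 under 10 TPM and 1.10 within bins of transcript length, and except for the ratio of means (0.65) the median of the Id genes had the same values in these settings. That median was 0.11 without globin cells, 0.49 with a pseudocount of 10 and 0.54 with the upper against the lower 50% of cells. Id2 differed by 1.85 with Zp2 under 10 TPM and by -0.08 with TPM per spike-in. Genes higher and lower numbered 1814 and 1163 with a pseudocount of 0.1, 91 and 191 with a pseudocount of 10, 408 and 1281 with TPM per spike-in, 2449 and 164 with Id1 ranked per spike-in, and 1555 and 1632 without cells with a globin gene at 10 TPM or more (22 cells left, 7 against 7, called without globin cells here). The median over all genes at 10 TPM, 0.049 as reported, was -0.30 with TPM per spike-in, 0.57 with Id1 ranked per spike-in and 0.15 with a pseudocount of 0.1. The ratio of means gave 579 higher, upper against lower 50% of cells 309 lower, and Figla of at least 1000 TPM 1527 higher. The cause of these changes was not tested.

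The median of the oocyte list was -1.07 with a pseudocount of 0.1, -1.88 as a ratio of means, -1.22 with the upper and lower 25% of cells, -1.03 with Id1 by CPM, -1.11 with Zp3 under 1 TPM and -1.09 without the cells highest in somatic markers. It was -0.17 on medians, -0.24 with Zp2 under 10 TPM, -0.60 with a pseudocount of 10, -0.64 with Id1 per spike-in and -0.66 without globin cells. BMP feedback had 1.04 with a pseudocount of 0.1, 0.23 with one of 10, 0.16 on medians and -0.50 without globin cells. The ribosomal list had -0.012 with TPM per spike-in, and the respiratory list -0.61. The ratio of means gave -1.12 for ligands, 2.17 for stroma, 1.25 for endothelial and 1.04 for blood markers. Smads had -1.18 on medians, -1.13 without globin cells, -0.03 by CPM, 0.24 with Zp2 under 10 TPM and 0.69 with Id1 per spike-in, and blood markers 1.33 with the higher Figla limit and 1.12 with Zp2 under 10 TPM. Without globin cells Ssbp4 (-0.049), Espn (-0.82), Usb1 (-0.55), Tuba1c (0.96) and Id4 (-0.0096) turned their sign, 9 other named genes fell under 2-fold and 15 stayed past it. With Zp2 under 10 TPM, 8 of the 28 genes other than Zp2 fell under 2-fold and 20 stayed. Of 26 lists, 3 (the Id, oocyte and respiratory genes) had medians that kept their sign in every alternative run, and 23 had a median that reached 0 or turned in at least 1. Stroma markers had -0.044 without globin cells and 0 on medians. The genes assayed after Id1 knockdown had 0.18 without globin cells, 0.11 in cells numbered 38 and up, 0.22 with Zp2 under 10 TPM and 0.020 with Id1 per spike-in. The middle-stage list had 0.080 with the upper against the lower 50% of cells, 0.062 with Id1 per spike-in and 0.57 with Zp2 under 10 TPM.

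With each cell left out in turn, 815 to 1084 genes were higher and 692 to 840 lower, Id3 differed by 0.82 to 1.03, Id2 by 0.12 to 0.42 and the oocyte list by -1.05 to -0.76. A minimum of 3000000 reads removed no cell. No paired analysis was possible because all cells are 1 group and the numbers only name them. The alternatives on library numbers, Zp2, length, shared libraries and list names were chosen after seeing the data.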
